A study of Mus musculus with 6 samples.

Results

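The genes of doxorubicin action and disposal were followed in mouse heart: the topoisomerases Top1, Top1mt, Top2a and Top2b, the enzymes Tdp1 and Tdp2 that clear trapped topoisomerases, the carbonyl reductases Cbr1 and Cbr3, and the efflux transporters Abcb1a and Abcc1. They were chosen by gene symbol as the pathway of the drug itself, and all 10 had a row in the table of 35618 genes. The study sequenced polyadenylated RNA in 6 heart libraries, 3 labelled GSDMD-FLOX/FLOX (floxed Gsdmd alleles) and 3 labelled GSDMD-CKO (Gsdmd deleted in the myocardium). Gsdmd encodes gasdermin D, which forms membrane pores in pyroptotic cell death. Every mouse was 6 to 8 weeks old, had received doxorubicin at 20 mg/kg into the peritoneum, and was sampled 3 days later. No heart without the drug was analysed here, so the values describe genotypes under the drug and not a response to it. The driver that deletes Gsdmd in the myocardium is not named in the sources used here, and whole heart also holds cells outside the deletion.

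Topoisomerases cut and rejoin DNA to release the strain of transcription and replication. Doxorubicin, an anthracycline, traps type II topoisomerases on the ends they have cut. TOP2A belongs to dividing cells, whereas TOP2B is also made in cells that have stopped dividing, including cardiomyocytes, and mice without Top2b in cardiomyocytes are known to be protected from anthracycline damage. Carbonyl reductases turn doxorubicin into the alcohol doxorubicinol, and ATP-driven pumps carry anthracyclines out of cells.

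The libraries held 17279147 to 18875902 counted reads. Gsdmd measured 6707 to 8272 CPM (reads relative to library size, scaled by TMM) in the floxed and 77.4 to 137 CPM in the knockout libraries, so it divided the libraries as labelled. Its floxed mean, 7613 CPM, was of the size of that of the cardiomyocyte gene Tnnt2, 7015 CPM, without correction for gene length. The reason for so high a Gsdmd level was not tested. The 10 cardiomyocyte markers were all present, at a summed 18067 to 27309 CPM in floxed and 11499 to 24587 CPM in knockout libraries, with 0 of 10 called by edgeR, a median log2 fold change of -0.31 (-0.57 to -0.055 with single libraries left out), and Myh6, Actn2 and Tnnt2 at 0.95, -0.50 and -0.60. Knockout library 1 stood apart from the other knockouts. Across genes on log2 CPM it correlated at 0.932 and 0.899 with knockout libraries 2 and 3 and at 0.970 with floxed library 2. Mitochondrially encoded genes took 18.1% of its counts against 5.48% to 11.2% elsewhere. Knockout library 3 was also at an extreme. It correlated at 0.965 with knockout library 2 but at 0.918 with floxed library 2. Its mitochondrial share, 5.48%, and its cardiomyocyte sum, 11499 CPM, were the lowest of all. Results are also given without knockout library 1, although it was not the only library at an extreme. The labels do not tie libraries to animals, so the p-values measure only the spread between these libraries, which may be technical.

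None of the 10 genes differed between the genotypes past the threshold, an adjusted p under 0.05 (edgeR's quasi-likelihood fit, Benjamini-Hochberg over 16591 genes). Over all genes tested, 0.0121% were called, namely Gsdmd and the fast skeletal troponin gene Tnnt3, both lower in the knockout. Each other tool also called 0 of the 10: DESeq2, which called 1.46% of all genes, limma-voom, which called 0.00603%, and limma on the deposited FPKM, which called 0.0181%. In what follows, called means past this edgeR threshold with all 6 libraries unless another tool or set of libraries is named. At an unadjusted p under 0.05, edgeR held 1 of the 10, Top2a, against 7.02% of all genes. In CPM, the knockout libraries lay wholly above the floxed ones for Top1 and Tdp1 and wholly below them for 0, that is 2 of 10 genes where 11.8% of all genes separated in either direction, 5.82% upward and 5.98% downward. In the deposited FPKM the groups overlapped for both Top1 and Tdp1. The median log2 fold change was 0.12 over the 10 genes and 0.03 over all genes tested. What distinguished the genes was how far single libraries departed: the highest library exceeded the lowest by 12.2-fold for Top2a, 3.81-fold for Abcb1a and 2.57-fold for Cbr3, and by 1.25-fold for Tdp2 and Abcc1.

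**Figure D1:**
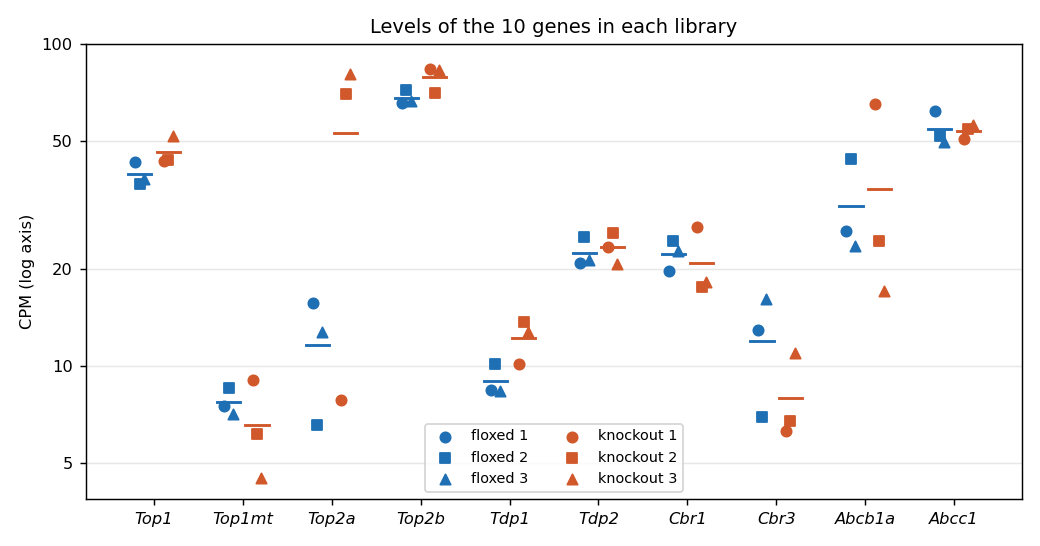
Level of each of the 10 genes in CPM (log axis) in the 3 floxed (blue) and 3 knockout (orange) libraries, with marker shape giving the library number and lines the group means. Top2a is high in knockout libraries 2 and 3 at 70.0 and 80.6 CPM, while the points of most other genes overlap between the groups.

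Levels can be compared between genes only per length, for which the deposited FPKM (fragments relative to gene length and library size) was used. The lengths it implies run from 1254 bases for Cbr3 to 15097 bases for Abcc1, and how they were set is not given. The order of the genes depends on these lengths. In the floxed libraries Cbr3 averaged 9.59 ± 3.86 FPKM and Cbr1 8.66 ± 0.650 FPKM (SD, n = 3), with overlapping libraries. Tdp2 followed at 6.79 ± 0.508 FPKM, below every Cbr1 value, and overlapped Abcb1a at 5.65 ± 1.82 FPKM. Top2b, at 4.62 ± 0.101 FPKM, lay within the spread of Abcb1a and above every value of Top1 (3.76 ± 0.434 FPKM), Top1mt (3.76 ± 0.275 FPKM) and Abcc1 (3.60 ± 0.531 FPKM), which overlapped one another. Top2a at 1.30 ± 0.554 FPKM and Tdp1 at 1.12 ± 0.0889 FPKM were lowest and overlapped. Top2a ranked 10 of 10 in knockout library 1, 2 of 10 in knockout library 2 and 1 of 10 in knockout library 3.

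Top2a (ENSMUSG00000020914, chromosome 11, 98883769 to 98915015, minus strand, at the positions of the deposited table, whose build is uncertain) was the member that varied most. The submitters' notes name build mm10, but 0 of the 10 genes start within 1 kb of their RefSeq position in GRCm38.p6, so the table's positions are given only as deposited. Top2a measured 15.7, 6.60 and 12.8 CPM in floxed libraries 1, 2 and 3 and 7.87, 70.0 and 80.6 CPM in knockout libraries 1, 2 and 3. Knockout libraries 2 and 3 were far above all others, and knockout library 1 lay inside the floxed range, so the groups overlapped. The means were 11.7 ± 4.64 and 52.8 ± 39.3 CPM (SD, n = 3), a fitted log2 fold change of 2.17 (SE 0.78, 95% interval 0.33 to 4.02). It missed the threshold over all genes (edgeR adjusted p = 0.641). Without knockout library 1 the log2 fold change was 2.67 and the gene passed (edgeR adjusted p = 0.0141), in a fit that called 2.92% of all genes. Without any 1 of the other libraries it lay between 1.74 and 2.44, with edgeR adjusted p-values from 0.596 to 0.9999.

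Top2a was high in the libraries where the genes of cell division were high. The 16 cell division genes, which include the proliferation antigen Mki67 and the mitotic kinase Cdk1, summed to 53.3 to 98.0 CPM in the floxed libraries, to 68.3 CPM in the first knockout library and to 391 and 404 CPM in the others. Top2a is not itself in the list, and the ratio of its CPM to that sum was 11.5% to 19.9%, a 1.73-fold range beside the 7.58-fold range of the sum. In edgeR none of the 16 passed the test over all genes, while DESeq2 called 2 of them higher, beside 1.46% of all genes in either direction. All 16 had positive log2 fold changes, and their median was 1.83. Plk1, a mitotic kinase, had means of 3.26 ± 0.550 CPM without and 12.5 ± 6.65 CPM with the knockout (SD, n = 3), without overlap. Bub1, a spindle checkpoint kinase, had 1.50 ± 0.679 and 7.12 ± 4.30 CPM, and Hmmr, a spindle-associated protein, 1.82 ± 0.463 and 8.26 ± 5.93 CPM, both with overlap. Without knockout library 1, edgeR called 14 of the 16 higher, beside 2.92% of all genes in either direction.

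T and NK cell genes and erythroid genes were also high in knockout libraries 2 and 3. The 12 T and NK cell genes summed to 133 to 302 CPM in floxed libraries, and 214, 1029 and 1051 CPM in knockout libraries 1, 2 and 3. Their median log2 fold change was 2.23, with 12 of 12 positive. The ratio of Top2a CPM to their sum was 3.67% to 7.67%, a 2.09-fold range beside the 7.89-fold range of the sum. With all libraries edgeR called 0 and DESeq2 called 8 of the 12 higher, where DESeq2 called 1.46% of all genes. Without knockout library 1 edgeR called 10 of the 12 higher, beside 2.92% of all genes. The smallest p-values were those of the CD8 coreceptor gene Cd8a (log2 fold change 2.45), the T cell receptor gene Trac (2.34) and the NK receptor gene Klrd1 (2.16), each with an edgeR adjusted p of 0.529. The 5 globin and erythroid genes summed to 5.30 to 14.8 CPM in floxed and 49.3, 348 and 407 CPM in knockout libraries 1, 2 and 3, with a median log2 fold change of 4.97. With all libraries edgeR called 0 and DESeq2 called 5 of the 5 higher, beside its 1.46% of all genes. Without knockout library 1 edgeR called 5 of the 5 higher, beside its 2.92%. Among them Hbb-bs had a log2 fold change of 4.97, Hba-a1, whose near-identical copy may share its reads, of 4.21 and the haem synthesis gene Alas2 of 4.43. The macrophage list spanned 3532 to 6922 CPM in floxed and 2227 to 6127 CPM in knockout libraries, with 0 of 10 called, a median of -0.23, and Mrc1, Cd68 and Cd163 at log2 fold changes of -0.58, -0.65 and -0.87. Without knockout library 1 the macrophage median was 0.09, and Cd163, the scavenger receptor gene, was called lower (log2 fold change -2.36, edgeR adjusted p = 0.0389). The B cell genes summed to 6.96 to 12.8 and 3.81 to 12.6 CPM, with 4 of 5 tested, 0 called, a median of 0.20 (-0.25 to 0.61 with single libraries left out), and Cd79a and Pax5 at log2 fold changes of 0.89 and -0.68. No marker of these 4 lists was at 0 counts in every library. The part of these cells in the Top2a difference was not tested, and in bulk tissue more cells of a type and more RNA per cell cannot be told apart.

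**Figure D2:**
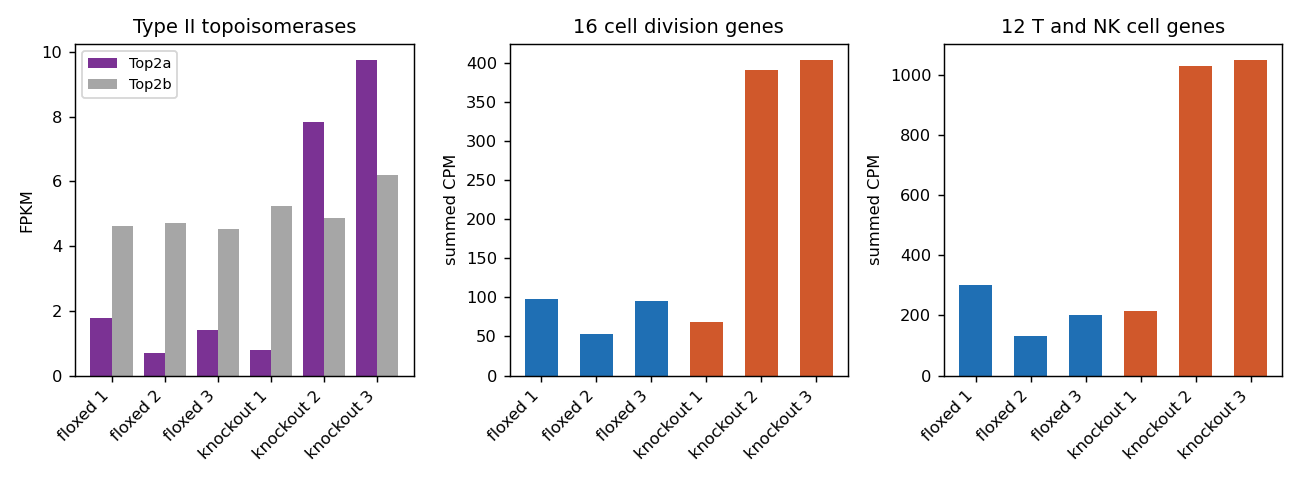
Deposited FPKM of Top2a and Top2b (left), and summed CPM of 16 cell division genes (middle) and of 12 T and NK cell genes (right), in each library. In FPKM, though not in CPM, Top2a exceeds Top2b in knockout libraries 2 and 3, where both sums are also high, while Top2b stays between 4.53 and 6.20 FPKM.

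Top2b (ENSMUSG00000017485, chromosome 14, 6034301 to 6104584, minus strand in the deposited table) was the steadier type II enzyme. Its levels were 65.7, 72.0 and 66.3 CPM in floxed libraries 1, 2 and 3 and 83.8, 70.5 and 83.1 CPM in knockout libraries 1, 2 and 3. Knockout libraries 1 and 3 were above every floxed library and knockout library 2 was within the floxed range. Its log2 fold change was 0.22 (SE 0.15, 95% interval -0.14 to 0.58), with an edgeR adjusted p of 0.865, and it was 0.16 without knockout library 1. On FPKM, the ratio of Top2a to Top2b was 0.388, 0.148 and 0.313 in floxed libraries 1, 2 and 3, and 0.153, 1.61 and 1.57 in knockout libraries 1, 2 and 3. By FPKM, Top2b was thus the higher type II transcript in 4 of the 6 libraries and Top2a in the remaining 2. This order depends on the lengths that the FPKM implies, 14619 bases for Top2b and 9003 bases for Top2a. In CPM, which takes no account of length, Top2a did not exceed Top2b in any library. The 2 genes were nearly equal there in knockout libraries 2 and 3, with Top2a at 70.0 and 80.6 CPM. The last 4624 bases of the Top2b gene overlap Rarb on the opposite strand. The libraries keep strand information, but how strand was set in counting is not given. Rarb itself measured only 1.14 to 1.79 CPM.

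The regions around the start sites of these 2 genes differ in cell cycle promoter motifs, and they are shown because Top2a followed the cell division genes over the libraries. Both are the RefSeq windows of GRCm38.p6, from 250 bases before to 50 bases after the start site, in the direction of transcription. GRCm38.p6 has Top2b on the plus strand, unlike the deposited table, and the windows and the table's positions were not combined. Capitals mark CCAAT boxes (CCAAT, or ATTGG on the other strand) and cell cycle homology regions (TTTGAA or TTCGAA, either strand).
Top2a, chr11:99024140-99024439, minus strand: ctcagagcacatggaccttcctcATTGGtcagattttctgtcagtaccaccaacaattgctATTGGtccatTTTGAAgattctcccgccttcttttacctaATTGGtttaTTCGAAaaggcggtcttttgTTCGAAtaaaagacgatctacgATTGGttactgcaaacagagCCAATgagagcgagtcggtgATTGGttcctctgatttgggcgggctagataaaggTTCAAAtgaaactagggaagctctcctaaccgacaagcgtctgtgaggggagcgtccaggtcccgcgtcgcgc
Top2b, chr14:16364956-16365255, plus strand: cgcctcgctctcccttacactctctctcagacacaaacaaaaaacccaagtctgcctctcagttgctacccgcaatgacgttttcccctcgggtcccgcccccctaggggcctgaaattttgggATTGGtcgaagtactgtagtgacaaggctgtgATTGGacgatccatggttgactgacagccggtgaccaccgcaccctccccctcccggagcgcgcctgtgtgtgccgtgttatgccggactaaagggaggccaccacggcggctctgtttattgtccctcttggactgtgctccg
The Top2a window holds 6 CCAAT boxes and 4 cell cycle homology regions, none of which overlap. At least 6 CCAAT boxes occur in 0.0814% and at least 4 cell cycle homology regions in 0.0296% of 27025 mouse gene windows of the same length, and Top2a is the 1 window with both. The Top2b window holds 2 CCAAT boxes and 0 cell cycle homology regions, and at least 2 CCAAT boxes occur in 12.2% of windows. At least 1 CCAAT box stood in 11 of 13 windows of the cell division list and in 37.9% of all windows, and at least 1 cell cycle homology region in 9 of 13 and in 19.4%. Cell cycle homology regions also stood in the windows of Abcb1a (2), Cbr3 (1) and Tdp1 (1). A match is a description of letters and does not show that a factor binds there.

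Top1, the nuclear enzyme that cuts a single DNA strand, separated the groups narrowly in CPM, with all knockout libraries above all floxed ones, though not past the test. Top1 (ENSMUSG00000070544, chromosome 2, 160487808 to 160564684, plus strand) measured 43.1, 36.8 and 38.2 CPM in floxed libraries 1, 2 and 3 and 43.2, 43.6 and 51.9 CPM in knockout libraries 1, 2 and 3. The gap between floxed library 1 and knockout library 1 was far smaller than the spread within either group. In FPKM the groups overlapped, with knockout libraries 1 and 2 at 3.78 and 4.23 FPKM and floxed library 1 at 4.24 FPKM. The fitted log2 difference was 0.23 (SE 0.16, 95% interval -0.14 to 0.60), with an edgeR adjusted p of 0.863, and it was 0.26 without knockout library 1.

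Top1mt, the topoisomerase of the mitochondrial genome, varied more. Top1mt (ENSMUSG00000000934, chromosome 15, 75528884 to 75550649, minus strand) measured 7.53, 8.58 and 7.12 CPM in floxed libraries 1, 2 and 3 and 9.07, 6.18 and 4.49 CPM in knockout libraries 1, 2 and 3. Knockout library 1 was the highest of all and knockout libraries 2 and 3 the lowest. On the log2 scale the knockout minus floxed difference was -0.24 (SE 0.31, 95% interval -0.96 to 0.48), with an edgeR adjusted p of 0.942, and it was -0.56 without knockout library 1 (edgeR adjusted p = 0.303). The mitochondrially encoded share of counts was 8.45%, 11.2% and 6.70% in floxed libraries 1, 2 and 3 and 18.1%, 10.2% and 5.48% in knockout libraries 1, 2 and 3, likewise highest in knockout library 1 and lowest in knockout library 3. Its part in the Top1mt values was not tested. The gene lies 184 kb from the deleted gene Gsdmd on the same chromosome, with 5 annotated genes wholly between them.

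Other topoisomerases and their partners gave 0 of 6 called in edgeR and 1 higher in DESeq2, which called 1.46% of all genes. Their log2 fold changes were positive in 6 of 6, with a median of 0.48 beside 0.03 for all genes tested. Without knockout library 1, 5 were positive and 1 negative, with a median of 0.49. The type IA enzymes Top3a and Top3b had log2 fold changes of 0.02 and 0.21, and of 0.04 and -0.09 without knockout library 1. The smallest p-values belonged to Blm, the Bloom helicase, at 2.45 to 3.17 CPM in floxed and 4.89 to 8.69 CPM in knockout libraries, to Rmi2, a subunit of the Bloom complex, at 0.540 to 1.56 and 1.78 to 9.58 CPM, and to Topbp1, a replication checkpoint protein, at 20.1 to 31.8 and 34.4 to 47.5 CPM. These 3 of 6 genes lay wholly above the floxed range in the knockout libraries, as did 5.82% of all genes. The edgeR adjusted p-values of the 3 were 0.570, 0.578 and 0.631. Rmi2 was highest in knockout libraries 2 and 3, as was Top2a, and without knockout library 1 it was called higher (log2 fold change 2.78, edgeR adjusted p = 0.0241).

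Tdp1 and Tdp2 undo the covalent bond between a trapped topoisomerase and DNA, Tdp1 mainly for type I and Tdp2 for type II enzymes. Tdp1 (ENSMUSG00000021177, chromosome 12, 99850776 to 99921478, plus strand) measured 8.47, 10.1 and 8.37 CPM in floxed libraries 1, 2 and 3 and 10.2, 13.8 and 12.8 CPM in knockout libraries 1, 2 and 3. Knockout library 1 and floxed library 2 were nearly equal, at 160 and 169 counts, and knockout libraries 2 and 3 were higher. In FPKM the groups overlapped, with knockout library 1 at 1.16 FPKM and floxed library 2 at 1.22 FPKM. The means of 8.99 ± 0.994 and 12.3 ± 1.88 CPM (SD, n = 3) gave a log2 fold change of 0.45 (SE 0.21, 95% interval -0.06 to 0.95), with an edgeR adjusted p of 0.757. Without knockout library 1 it was 0.55, with an edgeR adjusted p of 0.206. Its range over libraries, 1.64-fold, was well under the 12.2-fold range of Top2a.

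Tdp2 (ENSMUSG00000035958, chromosome 13, 25015662 to 25026136, plus strand) was among the steadiest of the 10 genes. It measured 20.9, 25.3 and 21.3 CPM in floxed libraries 1, 2 and 3 and 23.5, 26.0 and 20.8 CPM in knockout libraries 1, 2 and 3. The groups overlapped almost fully. The log2 fold change was 0.06 (SE 0.17), and its 95% interval, from -0.34 to 0.46, leaves out a change of 2-fold in either direction.

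Further genes that process topoisomerase damage gave 0 of 17 called, with 11 positive, 6 negative and a median of 0.07, which was -0.04 without knockout library 1, 0.0035 without floxed library 1 and 0.0085 without knockout library 2. Rbbp8, which encodes the end resection factor CtIP, measured 9.78 to 15.1 CPM in floxed and 13.4 to 21.4 CPM in knockout libraries (log2 fold change 0.63, edgeR adjusted p = 0.706). Prkdc, the catalytic subunit of DNA-dependent protein kinase, and the Ku70 gene Xrcc6 came next by p, with log2 fold changes of 0.31 and -0.19. Zfp451, whose product helps TDP2 act on trapped type II enzymes, measured 25.9 to 29.4 CPM in floxed and 27.8 to 29.6 CPM in knockout libraries. The retinoic acid receptor Rarg, a regulator of Top2b known from human cardiotoxicity studies, measured 45.8 to 52.1 and 42.0 to 67.3 CPM, and 0 of the 3 receptor genes was called, with log2 fold changes of 0.18 for Rarg, 0.13 for Rara and -0.47 for Rarb. Their median of 0.13 ranged from -0.09, without knockout library 2, to 0.21, without knockout library 3.

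**Figure D3:**
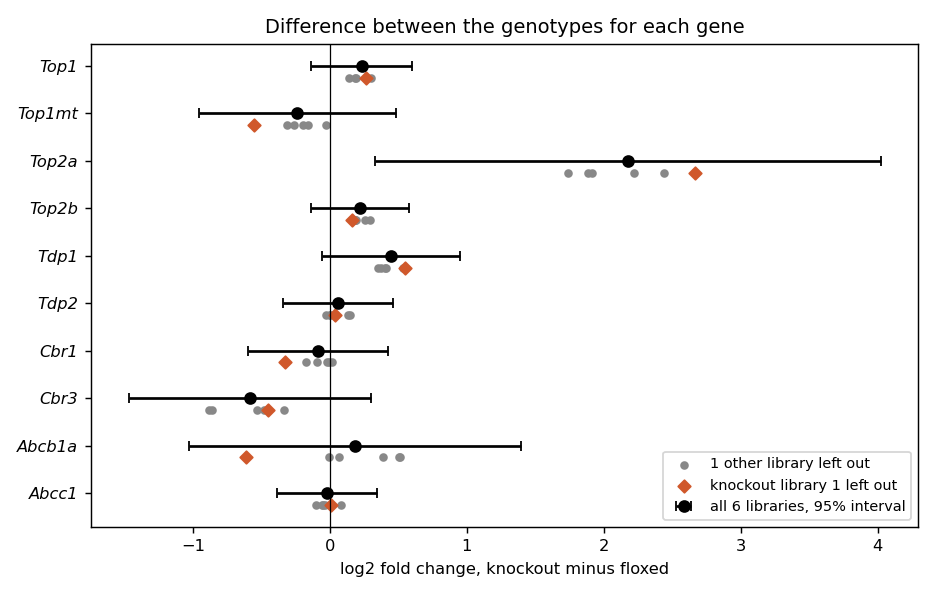
Log2 fold change of each gene, knockout minus floxed, with its 95% interval over all 6 libraries (black), and the value when knockout library 1 (orange diamond) or another library (grey) is left out. Top2a is the 1 gene whose interval leaves out 0, and Abcb1a moves from 0.18 to -0.61 when knockout library 1 is left out.

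The carbonyl reductases are neighbours on chromosome 16, on the same strand and 72.7 kb apart, with 0 other genes of the table lying wholly between them. Cbr1 (ENSMUSG00000051483, 93402741 to 93407393), a doxorubicin reductase, measured 19.7, 24.4 and 22.7 CPM in floxed libraries 1, 2 and 3 and 27.0, 17.6 and 18.3 CPM in knockout libraries 1, 2 and 3. Knockout library 1 was the highest of all and knockout libraries 2 and 3 the lowest. Its log2 fold change was -0.09 (SE 0.22, 95% interval -0.60 to 0.42), with an edgeR adjusted p of 0.974, and it was -0.33 without knockout library 1 (edgeR adjusted p = 0.367).

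Cbr3 (ENSMUSG00000022947, 93480103 to 93487878) was more variable than Cbr1. It measured 12.9, 6.96 and 16.2 CPM in floxed libraries 1, 2 and 3 and 6.28, 6.75 and 11.0 CPM in knockout libraries 1, 2 and 3. Floxed library 2 lay among the knockout values, so the groups overlapped. The fitted log2 difference was -0.58 (SE 0.37, 95% interval -1.47 to 0.30), with an edgeR adjusted p of 0.855, and it ranged from -0.88 to -0.33 when any 1 library was left out. On FPKM, the ratio of Cbr3 to Cbr1 was 1.34, 0.581 and 1.45 in floxed libraries 1, 2 and 3 and 0.475, 0.782 and 1.22 in knockout libraries 1, 2 and 3. The same 3 libraries, floxed 2 and knockout 1 and 2, had Cbr3 below Cbr1 and the lowest sums of the 8 fibroblast genes, at 4839, 4026 and 5536 CPM against 7713 to 12104 CPM in the others. The highest sum was in knockout library 3, where Cbr3, at 11.0 CPM, was below floxed libraries 1 and 3. The ratio of Cbr3 CPM to the sum of these 8 genes was 0.0907% to 0.209%, a 2.31-fold range. The sum had a 3.01-fold range and Cbr3 itself 2.57-fold. None of those 8 genes was called, with a median of -0.10 (-0.64 to 0.12 with single libraries left out) and with Tcf21, Ddr2 and Pdgfra at log2 fold changes of -0.47, 0.17 and -0.11. These 3 genes, at 8.88 to 56.9 CPM, made little of the sum. Tcf21 was also lowest in floxed library 2 and knockout libraries 1 and 2. Pdgfra was not, at 54.7 CPM in floxed library 2 and 41.5 CPM in floxed library 1. Neither was Ddr2, at 47.0 CPM in knockout library 2 and 41.4 CPM in floxed library 3. The part of fibroblasts in the Cbr3 values was not tested. The nearest tested genes outside the pair were Setd4, 1789 bases before Cbr1 on the opposite strand, at 6.85 to 10.3 CPM in floxed and 5.54 to 12.3 CPM in knockout libraries, and Dop1b beyond Cbr3, at 29.8 to 35.1 and 35.5 to 44.4 CPM (log2 fold change 0.26, edgeR adjusted p = 0.837).

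Other enzymes that reduce carbonyls gave 0 of 14 tested genes called, with 10 negative, 4 positive and a median of -0.13. Akr1b8, an aldo-keto reductase, measured 29.5, 17.9 and 24.4 CPM in floxed libraries 1, 2 and 3 and 9.84, 13.6 and 15.4 CPM in knockout libraries 1, 2 and 3, without overlap. Its log2 fold change was -0.89 with an edgeR adjusted p of 0.578. Dhrs4 and Akr1c14 followed by p with log2 fold changes of -0.47 and 0.68. The most abundant was Akr1a1, at 352 to 480 CPM in floxed and 275 to 498 CPM in knockout libraries. Without knockout library 1, 1 of the 14, the xylulose reductase gene Dcxr, was called lower in edgeR, in a fit that called 2.92% of all genes. The median of the 14 was then -0.45.

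Flavoenzymes that pass electrons to the quinone of anthracyclines, together with complex I subunits and the quinone reductases Nqo1 and Nqo2, gave 0 of 11 called in edgeR. DESeq2 called 1 of them lower, beside 1.46% of all genes. Of the 11, 9 were negative, with a median of -0.24. All 11 were negative without knockout library 1, where 0 were called in edgeR and the median was -0.48, and without knockout library 2 it was -0.15. Cyb5r1, a cytochrome b5 reductase, measured 97.7 to 112 CPM in floxed and 56.0 to 74.0 CPM in knockout libraries, without overlap (log2 fold change -0.68, edgeR adjusted p = 0.529). Nqo1, which reduces quinones by a pair of electrons, and Cyb5r3 had log2 fold changes of -0.61 and -0.40. The NRF2 target list, which shares Nqo1 and Txnrd1 with this one, gave 0 of 17 called, 14 negative and a median of -0.38 (-0.63 to -0.27 with single libraries left out), with Gsta4 at -1.28, Srxn1 at -1.28 and Taldo1 at -0.78. Its summed level was 1567 to 1686 CPM in the floxed and 979 to 1416 CPM in the knockout libraries, without overlap. An antioxidant response element (TGACNNNGC, either strand), the site through which NRF2 acts, was found in 12.5% of all windows, in 6 of 14 windows of this list and in neither carbonyl reductase window. The windows of Top2b and Abcb1a held 1 each.

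Abcb1a and Abcc1, the pumps, differed in how they varied. Abcb1a (ENSMUSG00000040584, chromosome 5, 8710077 to 8798575, plus strand) encodes a P-glycoprotein of capillary endothelium. It measured 26.3, 44.1 and 23.6 CPM in floxed libraries 1, 2 and 3 and 65.2, 24.5 and 17.1 CPM in knockout libraries 1, 2 and 3. The highest and the lowest values were both from knockout libraries. On the log2 scale the knockout minus floxed difference was 0.18 (SE 0.51, 95% interval -1.03 to 1.39), with an edgeR adjusted p of 0.976. Its sign turned without knockout library 1, to -0.61 (edgeR adjusted p = 0.340), and without floxed library 3, to -0.01.

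The 10 endothelial genes summed to 1458, 1747 and 1362 CPM in floxed libraries 1, 2 and 3 and to 2732, 1919 and 835 CPM in knockout libraries 1, 2 and 3, also highest in knockout library 1 and lowest in knockout library 3. Abcb1a is not in the list, and the ratio of its CPM to this sum was 1.27% to 2.52%, a 1.98-fold range beside the 3.27-fold range of the sum. The lowest ratio was that of knockout library 2. Its sum was the highest after knockout library 1, but its Abcb1a level, 24.5 CPM, was below floxed libraries 1 and 2. None of the 10 was called, with a median of 0.25 and with Kdr, Tek and Cdh5 at log2 fold changes of 0.59, 0.35 and 0.35. The median was -0.13, with 8 of 10 negative, without knockout library 1, 0.16 without floxed library 3 and 0.64 without knockout library 3. Pericyte and smooth muscle genes gave 0 of 8 called, a median of 0.15 (0.034 to 0.30 with single libraries left out) and sums of 685 to 939 CPM in floxed and 728 to 1111 CPM in knockout libraries, with Cnn1 at -1.21, Cspg4 at -0.41 and Myh11 at 0.79. The part of endothelial content in the Abcb1a values was not tested. Abcb1b, the other mouse P-glycoprotein gene, lies 49.6 kb away on the same strand and measured 19.1 to 24.5 CPM in floxed and 16.7 to 32.2 CPM in knockout libraries. The pair is closely similar in sequence, and how reads that match both were counted is not given, so their separate levels are uncertain.

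**Figure D4:**
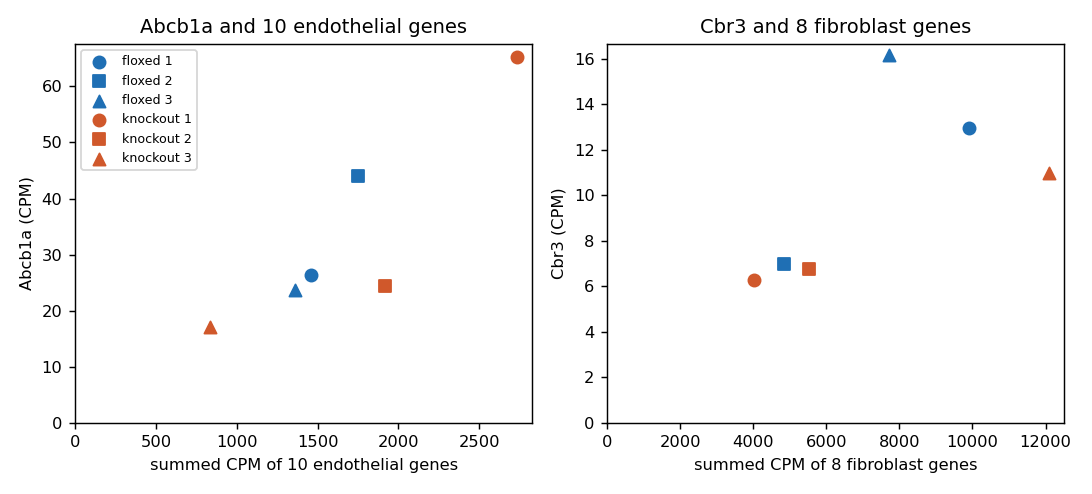
CPM of Abcb1a against the summed CPM of 10 endothelial genes (left) and CPM of Cbr3 against the summed CPM of 8 fibroblast genes (right), 1 point per library. Knockout library 1 is highest and knockout library 3 lowest on both axes at left, and floxed 2 and knockout 1 and 2 are the 3 lowest on both axes at right.

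Abcc1 (ENSMUSG00000023088, chromosome 16, 14179422 to 14293601, plus strand) encodes MRP1, which exports anthracyclines and glutathione conjugates. It measured 61.9, 52.0 and 49.6 CPM in floxed libraries 1, 2 and 3 and 50.6, 54.6 and 56.3 CPM in knockout libraries 1, 2 and 3, with every knockout value inside the floxed range. The means were 54.5 ± 6.54 and 53.8 ± 2.93 CPM (SD, n = 3). The log2 fold change was -0.02 (SE 0.16), and its 95% interval ran from -0.38 to 0.35. On FPKM, Abcb1a exceeded Abcc1 by 3.55-fold in knockout library 1, and the ratio was 0.838 in knockout library 3.

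Of the other efflux genes, 11 of 13 were tested and 0 were called, with 5 positive, 6 negative and a median of -0.06. The median was -0.30 without knockout library 1, with 10 of 11 negative, and it was 0.06 without floxed library 2 and 0.18 without knockout library 3. Abcc3, which exports conjugates, measured 31.2 to 56.6 CPM in floxed and 15.1 to 38.3 CPM in knockout libraries, Abcc4 20.9 to 24.9 and 23.5 to 29.8 CPM, and the vault protein gene Mvp 230 to 258 and 206 to 223 CPM. Abcg2, the breast cancer resistance protein, was highest in knockout library 1 at 102 CPM and lowest in knockout library 3 at 31.0 CPM, as was Abcb1a. Of the 10 uptake transporter genes, 7 were tested and 0 were called, with a median of -0.30, which ranged from -0.48, without knockout library 1, to 0.12, without floxed library 2. Slc22a4 measured 11.5 to 17.1 CPM in floxed and 5.24 to 9.20 CPM in knockout libraries, without overlap (log2 fold change -0.87, edgeR adjusted p = 0.611), and Slc22a17 and Slc28a1 had log2 fold changes of -0.30 and -0.45. Slc22a16, known in human cells as a doxorubicin importer, had 0 counts in all 6 libraries.

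For each of the 10 genes, the protein-coding genes with the most similar profile over the 6 libraries were found by the root mean square difference of centred log2 CPM. The nearest to Top2a were Ifi214 (0.17), Uhrf1 (0.20) and Ckap2l (0.20). Abcb1a had Fzd4 (0.10), Snrk (0.11) and Gpr160 (0.12), and Cbr3 had Serp2 (0.11), Vgll3 (0.16) and Tmem119 (0.16). Fzd4, for example, measured 72.4, 110 and 70.4 CPM in floxed libraries 1, 2 and 3 and 171, 60.2 and 48.9 CPM in knockout libraries 1, 2 and 3. For the remaining 7 genes the first neighbours were Plppr3 for Top1, Klc4 for Top1mt, Zbtb26 for Top2b, Srsf1 for Tdp1, Pikfyve for Tdp2, Nt5c2 for Cbr1 and Primpol for Abcc1, at distances of 0.02 to 0.07.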

How the data were processed

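Polyadenylated RNA of mouse heart was sequenced in 6 libraries with a stranded kit, per the labels' protocols. Tools named, without their steps, in the submitters' processing notes are featureCounts 1.6.2, HISAT2 2.1.0, fastp 0.19.3, DESeq2 1.22.1, Cufflinks, StringTie 1.3.4d and GATK 4.0.11.0, with build mm10. The authors deposited whole-number read counts for 35618 genes, with gene positions, and FPKM values for 35606. Of the 10 genes, 0 start within 1 kb of their RefSeq GRCm38.p6 position in that table, so table positions and RefSeq sequences were never combined. RefSeq start-site windows were held for 7 of the 10, the others being Tdp2, Top1mt and Abcc1.

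Counts were fitted with edgeR 4.0.16 (R 4.3.3) in its quasi-likelihood test, with TMM scaling, filterByExpr at a minimum count of 10, robust estimation and Benjamini-Hochberg adjustment over 16591 genes at 0.05. CPM uses the same scaling, and fold changes use edgeR's prior count. FPKM served between-gene levels and, as log2(FPKM + 1) or log2(FPKM + 0.1), limma 3.58.1, where the pseudocount understates changes of low genes. The biological coefficient of variation was 33.3%. With 3 libraries a side an exact permutation test cannot go below p = 0.1 and was not used. The tests were checked on simulated data, which held no outlying library. There edgeR recovered 10% of genes with a log2 change of 1, 70% at 2, 96% at 3 and 86% at 4. Of its 139 calls, 8 were false. A true 2-fold change would therefore mostly be missed. The fit to the real libraries called only 2 genes, so its Benjamini-Hochberg cut-off was stricter, and these recoveries can overstate its power. Hbb-bs, at a log2 fold change of 4.97, was not called there (edgeR adjusted p = 0.438). Alternatives were other scalings, filters and tools (DESeq2 1.42.0, limma-voom), a replicate block and leaving out each library.

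The 10 genes and the other gene lists were chosen with earlier results of these data known. From each list the text names up to 3 genes with the smallest p. A gene that this rule selects is not reported here. Top3a, Top3b, Zfp451, Akr1a1, Abcb1b, Abcg2, Slc22a16 and Dcxr were named after their values were seen, as were Mki67 and Cdk1 as examples without values.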

Additional observations from a re-analysis of the deposited data

How the results depend on the processing

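Over 16 other settings, 149 of 160 log2 fold changes of the 10 genes kept their sign and their side of the threshold. Abcb1a was -0.0153 with limma-voom and -0.0184 with the replicate block, and ranged from -0.61 to 0.51 when single libraries were left out. Abcc1 was 0.000188 and 0.000153 with limma on FPKM at pseudocounts of 1 and 0.1, and ranged from -0.10 to 0.079 over the left-out libraries. Tdp2 ranged from -0.026 to 0.15 and Cbr1 from -0.33 to 0.017. The cause was not tested. The number of genes called was 2 as reported, 10 with no filter on low counts, 243 with DESeq2, 1 with limma-voom, and 0 to 500 with single libraries left out, where 500 came without knockout library 1 and 0 without each of the other 5, with 545 to 1533 genes at an unadjusted p under 0.05 in edgeR there. Of the 10 genes, 0 to 1 were called with single libraries left out, Top2a being the 1, without knockout library 1. With the replicate block, edgeR called 0 genes and held 509 at an unadjusted p under 0.05. Same-numbered libraries deviated from their group means with correlations of -0.57, -0.31 and 0.041. With 3 libraries a side, these values cannot show whether the numbers pair the libraries. Top2a rests on 110 to 1615 counts and Top1mt on 90 to 145, and with 3 libraries a side the spread between libraries sets the width of the intervals.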
